A study of Mus musculus with 182 samples.

Results

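The genes described here encode the oxidative phosphorylation machinery of the inner mitochondrial membrane: NADH dehydrogenase (complex I), succinate dehydrogenase (complex II), the cytochrome bc1 complex (complex III), cytochrome c oxidase (complex IV) and ATP synthase (complex V). They were chosen by name, as every symbol of the table that starts with Nduf, Uqcr, Atp5, Sdha, Sdhb, Sdhc or Sdhd, or with Cox and a digit from 4 to 8. The rule found 91 genes among 17034 symbols. It uses names and no measured value, but it was chosen with earlier results of these data known. By known role they comprise 74 subunits, 12 assembly factors, which help to build a complex and do not stay in it or are not counted among its subunits here, and 5 subunit isoforms known from other tissues. By complex, 44 belong to I, 6 to II, 8 to III, 17 to IV and 16 to V.

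The study sequenced RNA from 182 single germinal centre B cells, activated B cells that proliferate and compete for antigen while their antibody genes mutate. The mice were C57BL/6 and had received 100 μg NP(23)-KLH (a hapten on a carrier protein) in 50% alum with 1 μg LPS, and spleens were taken at day 13. Cells carrying CD3, CD4, CD8, CD11c or IgD were removed with magnetic beads. By the sample labels the sorted phenotype was B220+ with high Fas, high GL7 and NP binding (NP+), while the design text gates live B220+ Fas+ GL7hi cells and names NP only as a stain. Cells were captured on a Fluidigm C1 chip, with separation scored by eye, and sequenced as 75-base pairs from SMARTer cDNA. All cells form 1 group, no animal is named, and no other group exists, so the cells are not replicates and no p-value is given. Every relation runs across cells of what is treated as 1 biological sample.

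Electrons from NADH enter the chain at complex I and those from succinate at complex II, pass through complex III and cytochrome c to complex IV, and the proton gradient built on the way drives complex V. Most subunits are encoded in the nucleus, and a few at the catalytic centres of complexes I, III, IV and V by mitochondrial DNA. Germinal centre B cells divide rapidly and have been reported to rely on oxidative metabolism. Of 28 listed genes of mitochondrial DNA, 0 were found by name in the deposited values, so they could not be analysed here.

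The deposited values are a normalized signal per gene and cell, and the read depth of a cell is unknown. A gene was called detected at a value of 1 or more. The columns fall into a first set (cells 1 to 96) and a second set (cells 97 to 182), between which no gene had an equal non-zero value, so each relation is also given within each set. In each set a gene has its own lowest value, called its floor. The number of genes detected lay between 1873 and 1946 per cell in the first set and between 995 and 1741 in the second, and was thus nearly constant in the first, while the number of genes above their floor ranged from 1904 to 4495 and from 980 to 5149. Of 14 germinal centre B cell genes, with a median share of 72.0% of cells, Cd79b was detected in 98.9%, Bcl6 in 58.2%, the sort marker Fas in 50.0% and Pax5 in 33.5%. Of 5 T cell genes in the table, Cd3d and Cd4 were detected in no cell, which allows a share of up to 2.01%, and Lck was found in 54.4%. Of 8 myeloid genes, Cst3 was found in 37.4% of cells and Lyz2 in 8.24%, with a list median of 3.30%.

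Respiratory chain and ATP synthase genes were widely detected. Of the 91 genes, 75 were detected in at least 10% of cells, against 31.8% of all symbols, and 15 in over 50%, against 3.79%. A cell had between 5 and 65 of them, with a median of 26. In the first set the lowest, median and highest numbers per cell were 11, 30 and 65, and in the second set 5, 22 and 63, so the ranges of the sets overlapped. Among the 75 genes, 65 had the larger share of cells in the first set, where 73.6% of all genes tested did so too. At a value of 5 or more, 6 genes passed 50% of cells, against 1.54% of all symbols. Within the first set 24 genes passed 50% of cells (4.64% of all symbols), and within the second set 6 did (3.01%).

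**Figure D1:**
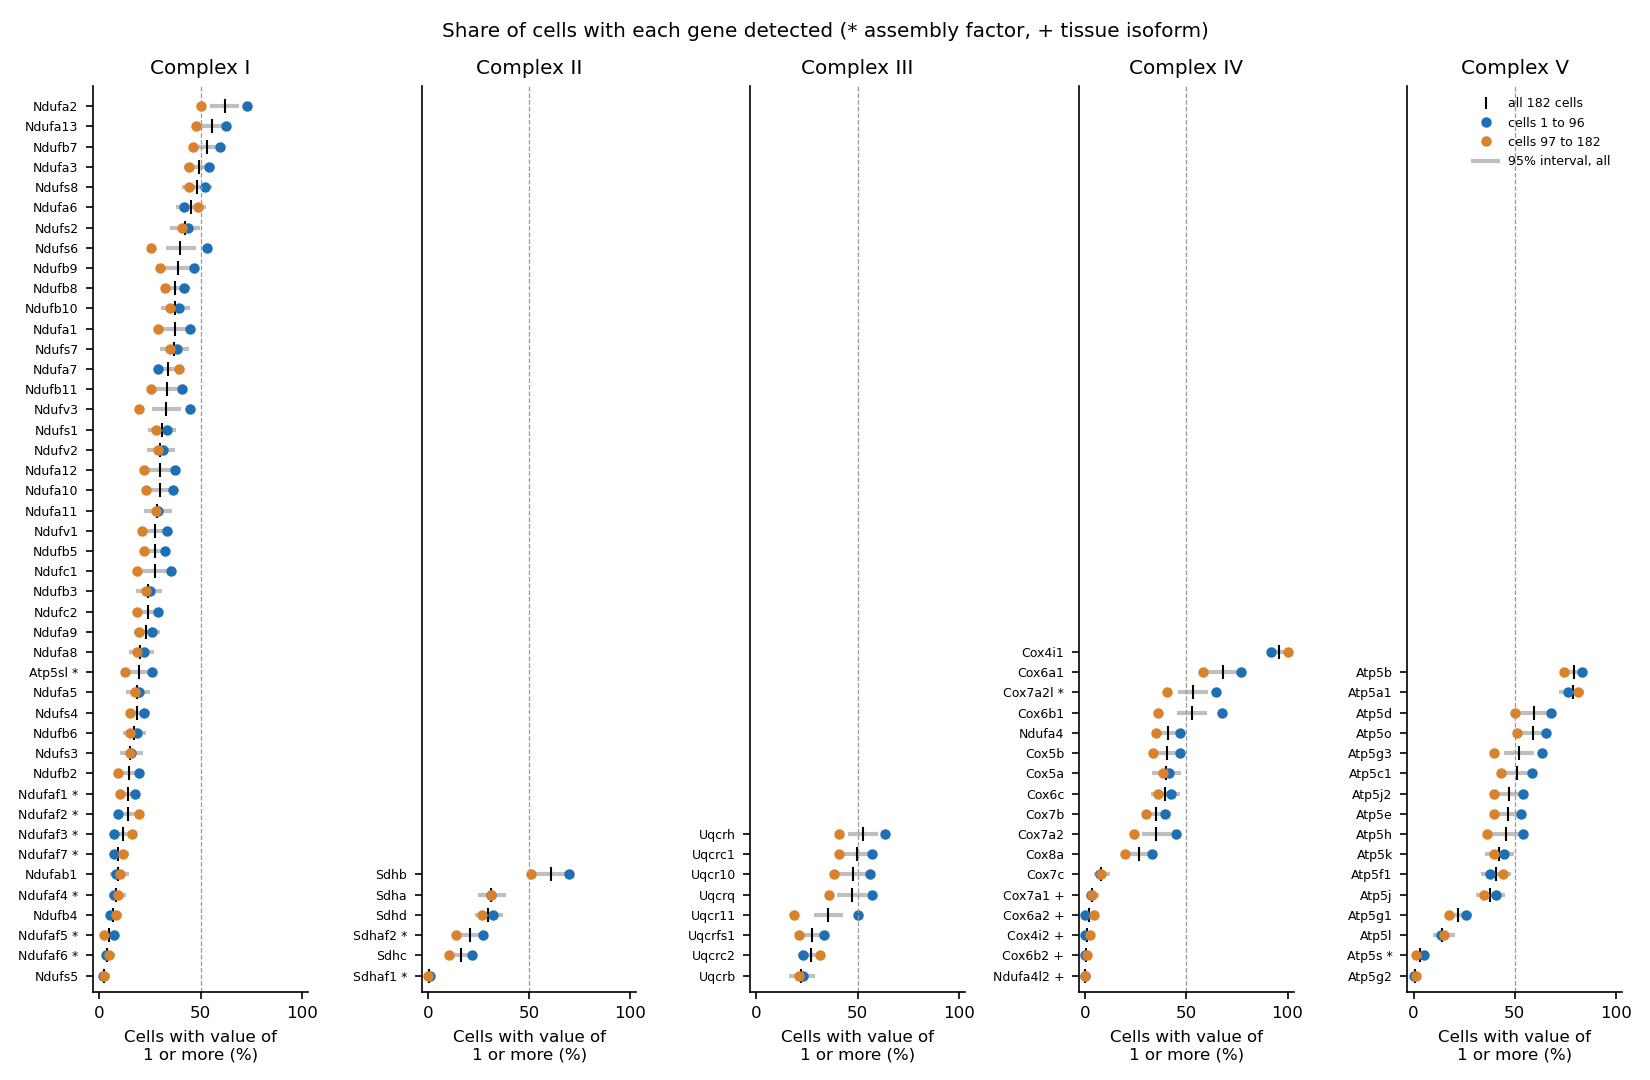
Share of cells with a value of 1 or more (x axis, percent) for each of the 91 genes (y axis), by complex. Black ticks are all 182 cells with their exact 95% interval in grey, blue points cells 1 to 96 and orange points cells 97 to 182. Cox4i1 leads at 95.6%, where its floor above 1 counts every cell of the second set as detected. The tissue isoforms lie at 3.30% or below.

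In complex I, which takes electrons from NADH, the most widely detected genes were accessory subunits. Ndufa2 was detected in 113 cells (62.1%, exact 95% interval 54.6 to 69.2), Ndufa13 in 101 (55.5%, 48.0 to 62.8) and Ndufb7 in 97 (53.3%, 45.8 to 60.7). All intervals cover counting error over cells only. Ndufb7 (chr8:83566758-83571623, GRCm38) had a lowest, median and highest value of 0, 4.93 and 3962 in the first set, and 0.177, 0.177 and 6368 in the second. Its cells therefore split into many at the floor and some at very high values, and this holds for most of the genes. Ndufa3, among the most variable members, had 0, 4.85 and 3119 in the first set and 0.0922, 0.0922 and 8862 in the second. The 7 core subunits, which carry the flavin, the iron-sulphur clusters and the quinone site, ranged from 15.4% of cells for Ndufs3 to 48.4% for Ndufs8. Their median share was 30.8%, close to the 30.2% of the 29 accessory subunits. Ndufs1, the largest core subunit, was detected in 30.8% of cells and Ndufv1, which binds NADH, in 27.5%.

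Succinate dehydrogenase is also an enzyme of the tricarboxylic acid cycle. Its iron-sulphur subunit Sdhb (chr4:140961271-140979198) was detected in 111 cells (61.0%, 53.5 to 68.1), its catalytic flavoprotein Sdha in 31.3%, and the membrane anchors Sdhd and Sdhc in 29.7% and 16.5%. The interval of Sdhb does not reach those of the other 3 subunits. Sdhb had a lowest, median and highest value of 0, 6.31 and 6217 in the first set and 0.218, 1.92 and 7066 in the second.

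All 8 genes of complex III were detected in over 20% of cells. The hinge protein gene Uqcrh (chr4:116066965-116075070) was found in 96 cells (52.7%, 45.2 to 60.2), the core protein gene Uqcrc1 in 49.5%, and the small subunit genes Uqcr10 and Uqcrq in 47.8% and 47.3%. Uqcrh had a lowest, median and highest value of 0, 6.77 and 3806 in the first set and 0.265, 0.265 and 1786 in the second, and Uqcr10 had 0, 5.64 and 5747, and 0.218, 0.218 and 5811. For both the second set had its median at the floor. The Rieske iron-sulphur protein gene Uqcrfs1 was detected in 27.5%. Uqcr11 showed the widest gap between the sets in this complex, at 50.0% and 18.6% of cells.

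Complex IV had both the most and the least widely detected genes. Cox4i1 (chr8:120668225-120674209), the ubiquitous form of a regulatory subunit, was detected in 174 cells (95.6%, 91.5 to 98.1), with a lowest, median and highest value of 0, 246 and 16403 in the first set and 1.35, 59.8 and 7405 in the second. Its floor in the second set lies above 1, so it counts as detected in every cell there, which holds for no other gene of the 91. It lay above its floor in 84.1% of all cells and in 73.3% of the second set. For Atp5a1 these shares were 83.0% and 86.0%. Cox6a1 (chr5:115345652-115348958) was detected in 124 cells (68.1%, 60.8 to 74.8), with 0, 14.4 and 6470 in the first set and 0.355, 13.7 and 14987 in the second. On the log2(value + 1) scale it varied most between cells of all 91 genes, with a standard deviation of 4.50, followed by Atp5e (4.38), Uqcr10 (4.19), Ndufb7 (4.11) and Ndufa3 (4.05). Cox6b1 was found in 52.7% of cells, Ndufa4, now counted with this complex, in 41.2%, Cox5b in 40.7% and Cox5a in 40.1%.

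The isoform families of complex IV were detected almost wholly through their ubiquitous forms. Cox4i2, the lung form that responds to oxygen, was detected in 2 cells (1.10%, 0.133 to 3.91), against 174 for Cox4i1. Cox6a2, the heart and muscle form, was detected in 4 cells, against 124 for Cox6a1, and Cox6b2, the testis form, in 1 cell against 96 for Cox6b1. Cox7a1, the heart and muscle form, was found in 6 cells, against 64 for Cox7a2, and Ndufa4l2 in none (up to 2.01%), against 75 for Ndufa4. The highest value of Cox7a1 was 1245, while Cox4i2 never exceeded 3.66. Cox8a was detected in 49 cells (26.9%).

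In ATP synthase the catalytic core was detected most widely. Atp5b, the catalytic beta subunit (chr10:128083307-128090388), was found in 144 cells (79.1%, 72.5 to 84.8) and Atp5a1, the alpha subunit, in 143 (78.6%, 71.9 to 84.3). Atp5b had a lowest, median and highest value of 0, 18.9 and 2216 in the first set and 0.302, 9.37 and 5471 in the second. Atp5a1 had 0, 6.43 and 5453 in the first set and 0.0146, 8.76 and 2817 in the second, so the sets overlapped for both. The delta subunit Atp5d was detected in 59.3% of cells, Atp5o, part of the stalk that holds the catalytic head, in 58.8%, and the gamma subunit Atp5c1, the rotor shaft, in 51.1%. The c-ring of the rotor is encoded by Atp5g1, Atp5g2 and Atp5g3, which differ in their import sequences. Atp5g3 was detected in 95 cells (52.2%, 44.7 to 59.6), Atp5g1 in 40 (22.0%, 16.2 to 28.7) and Atp5g2 in 1 (0.55%).

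For a few subunits the deposited value is uncertain because their sequence occurs elsewhere. Of all 75-base stretches of its transcript, 100% are also found in other genes for Atp5g2, 63.4% for Atp5l, 50.4% for Cox7c and 46.3% for Ndufa12. In the other genes sharing Atp5l sequence, 9 are annotated as pseudogenes. The 9 subunits with at least 25% of shared stretches, a threshold chosen after their values were seen, had a median share of 14.3% of cells, against 37.4% for the other 65. Cox7c, Ndufs5 and Ndufb4, all among these 9, were detected in 14, 4 and 12 cells. How the authors' software assigned such reads is not given in the sources used here, and the part of shared sequence in these low shares was not tested.

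Assembly factors were detected less widely than subunits, with a median share of 10.4% of cells against 36.0%. Cox7a2l, counted here as an assembly factor of complex IV, stood apart from the other 11 at 53.3%. Next were Sdhaf2, which attaches the flavin to Sdha, at 20.9%, and Atp5sl, a complex I assembly factor despite its name, at 19.8%. Ndufaf1 and Ndufaf2, a core assembly factor and a chaperone of complex I, were each found in 14.3%, and Sdhaf1 in 1 cell. In a list of 53 further genes of the chain outside the name rule, of which 52 are in the table, 29 were detected in at least 10% of cells and 3 in over 50%. Those 3 are Atpif1, the ATP synthase inhibitor (64.8%), Slc25a5, an ADP/ATP carrier (63.2%), and Slc25a3, the phosphate carrier (60.4%). Cyc1, cytochrome c1 of complex III, was found in 41.8% of cells.

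Promoters of the genes are described here by their letters. Whether the letters relate to the variation of the genes across cells, described further on, was not tested. RefSeq promoter windows (GRCm38.p6, from 250 bases before to 50 bases after the start site) were matched for 76 of the 91 genes. Some of the 76, such as Atp5g2, were detected in under 10% of cells. They were searched on both strands for the letters bound by factors known to act on nuclear respiratory genes. The palindrome of NRF1, printed in capitals in the first 3 sequences, occurred in 7 of the 76 (9.21%), against 1.75% of 12376 coding genes with a window and 2.58% of those detected in at least 10% of cells. AAGATGGC, the YY1 letters, occurred in 10 (13.2%), against 4.00% and 6.25%. CCGGAAG, the ETS letters that GABP can bind, occurred in 18 (23.7%), against 15.3% and 24.1%, and GGGCGG, the SP1 letters, in 46.1%, against 56.9% and 67.7%. The share with ETS letters was thus near that of other detected genes, and the share with SP1 letters was below it. A match is a run of letters and not a measured binding site.

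Of the 5 windows with the NRF1 letters upstream of the start site, those of the 3 genes that passed 10% of cells are shown: Cox6a1 (chr5:115349066-115349165, minus strand), Atp5k (chr5:108434400-108434499, minus strand) and Ndufa11 (chr17:56717657-56717756, plus strand), given in the direction of the gene with the letters in capitals.
Cox6a1: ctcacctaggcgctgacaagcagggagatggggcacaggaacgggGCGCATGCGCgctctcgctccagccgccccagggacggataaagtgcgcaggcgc
Atp5k: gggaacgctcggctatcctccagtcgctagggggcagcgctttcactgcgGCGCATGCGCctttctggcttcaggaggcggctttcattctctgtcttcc
Ndufa11: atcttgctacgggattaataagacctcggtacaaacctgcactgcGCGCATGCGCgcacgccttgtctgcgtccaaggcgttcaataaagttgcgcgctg

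Of the 10 matches to the YY1 letters, 9 read in the direction of the gene and began from 23 to 39 bases into the transcript. Short windows show the shared letters in Ndufa3 (chr7:3617384-3617413, plus strand), Ndufc1 (chr3:51408915-51408944, minus strand), Ndufs6 (chr13:73328433-73328462, minus strand) and Atp5j2 (chr5:145191500-145191529, minus strand).
Ndufa3: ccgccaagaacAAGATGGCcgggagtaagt
Ndufc1: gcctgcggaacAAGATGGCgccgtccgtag
Ndufs6: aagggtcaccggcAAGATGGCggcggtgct
Atp5j2: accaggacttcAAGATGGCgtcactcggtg

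Atp5e, the gene closest to the rest of the members in the next comparison, held the ETS letters on the other strand, read here as CTTCCGG (chr2:174464150-174464249, minus strand).
Atp5e: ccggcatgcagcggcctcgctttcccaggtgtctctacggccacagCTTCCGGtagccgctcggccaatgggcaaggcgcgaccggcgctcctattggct

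Across cells the genes varied together. For the 75 genes detected in at least 10% of cells, the mean Spearman rho over all 2775 pairs was 0.15 in all cells, 0.14 in the first set and 0.16 in the second. Over all pairs of the 5409 genes with the same filter it was 0.04, 0.01 and 0.02. Over pairs of 60 mitochondrial ribosomal protein genes it was 0.14, 0.11 and 0.11. Members with those genes had 0.14, 0.12 and 0.13, close to the values among members. In all, 88.8% of the members' pairs had a rho above 0, against 58.8% of all pairs. A rho of 0.2 or more in each of the sets was found for 414 pairs (14.9%), against 0.691% of all pairs, and of these 294 joined genes of different complexes. No pair had a rho of -0.2 or less in each of the sets. These correlations are descriptions over cells, and all genes of a cell share its library, scaling and depth. Single values are weak.

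Pairs within a complex differed little from pairs between complexes. The mean rho within complexes minus that between complexes was 0.02 in all cells, -0.01 in the first set and -0.02 in the second, and 0.07 in all cells when rarely detected members were included. Among subunits the highest mean was that of complex IV with itself, at 0.23, 0.21 and 0.28. Subunits of complex III with those of complex IV had 0.18, 0.17 and 0.25, and complex II with complex III had 0.09, 0.06 and 0.17. The pairs with the highest rho in both sets were Cox8a with Ndufb6 (0.43 and 0.43), Atp5j with Ndufb2 (0.42 and 0.45) and Atp5e with Atp5g1 (0.41 and 0.46), so only the third lay within a complex. Atp5e and Cox6b1 were both detected in 60 cells, Atp5e alone in 25, Cox6b1 alone in 36 and neither in 61.

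**Figure D2:**
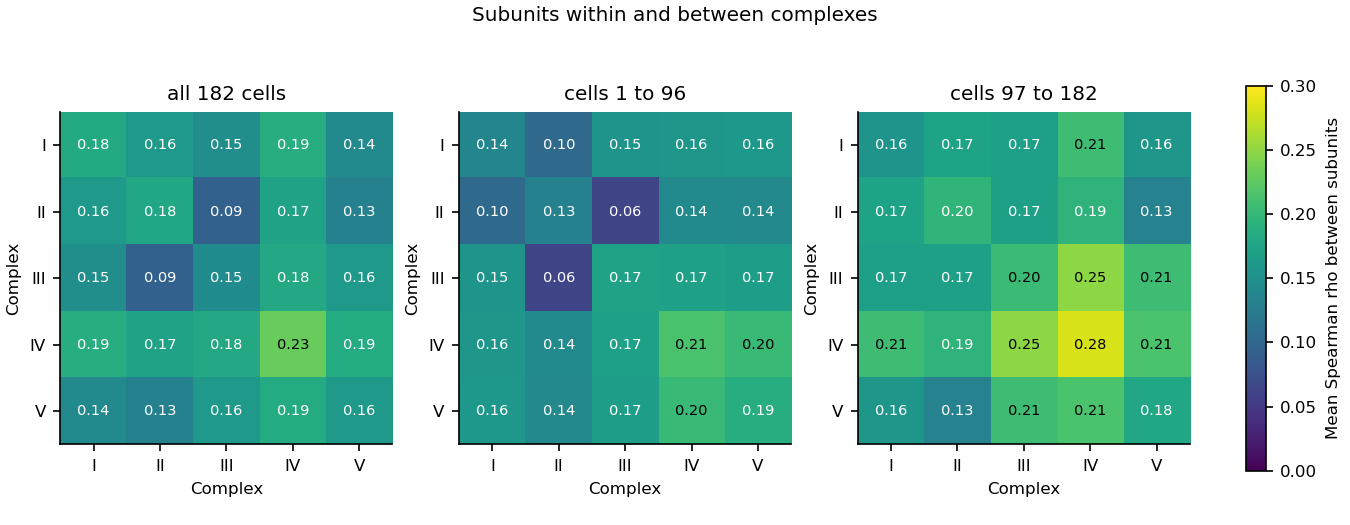
Mean Spearman rho between subunits of each pair of complexes (colour and printed value), for all 182 cells, cells 1 to 96 and cells 97 to 182. The complex IV square is highest in each panel, at 0.23, 0.21 and 0.28.

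Each gene was then set against a score of the others, the mean z-score of log2(value + 1) over the remaining members. A rho of 0.2 or more was found for 43 of 75 genes in all cells, while 13.5% of genes outside the group reached it with the score of all 75. Within the first set 60 genes did (background 20.3%), within the second 63 (28.4%), and 55 in each of the sets (11.8%). Atp5e, the small epsilon subunit of the ATP synthase stalk (chr2:174461075-174464101), was closest to the rest, with a rho of 0.53 in all cells, 0.60 in the first set and 0.62 in the second. Its lowest, median and highest values were 0, 5.73 and 3639 in the first set and 0.186, 0.186 and 4700 in the second. Coupling factor 6, Atp5j, followed with 0.52, and Uqcrb with 0.45. Among subunits detected in at least 50% of cells, the closest were Cox6a1 (0.44), Cox6b1 (0.42) and Cox4i1 (0.40) of complex IV, Atp5b (0.37) and Atp5a1 (0.35) of complex V, Ndufb7 and Ndufa13 (0.35 each) of complex I, Sdhb (0.33) of complex II and Uqcrh (0.28) of complex III. Ndufa2, although the most widely detected gene of complex I, had a rho of 0.13, at 0.10 and 0.20 within the sets.

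Subunits of complex IV led by this measure in all cells and within each set. The median rho with the rest was 0.34 over 10 subunits of complex IV, 0.31 over 14 of complex V, 0.29 over 8 of complex III and 0.09 over 4 of complex II. Within the sets it was 0.372 and 0.462 for complex IV and 0.366 and 0.302 for complex V. Complex III had 0.288 and 0.375 and complex II 0.152 and 0.262, so the order of complexes III and V differed between the sets. Accessory subunits of complex I had a median of 0.18 and core subunits of 0.10, and within the sets these were 0.31 and 0.36 against 0.21 and 0.22. The 6 assembly factors scored had a median of -0.03, from -0.11 for Ndufaf1 to 0.29 for Ndufaf2, and within the sets 0.17 and 0.14. Ndufs1 was the lowest subunit at -0.02, with 0.03 and 0.06 within the sets.

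Short transcripts were closer to the score, among these genes and among all others. Over the 75 genes, rho between transcript length and closeness to the rest was -0.50, and rho between share of cells and closeness was 0.53. Of genes outside the group, 40.2% of the 87 with transcripts up to 600 bases and 36.9% of the 301 from there to 1000 bases reached 0.2 with the score, against 12.2% of the 2012 between 2000 and 4000 bases. Among members, 16 of 19 up to 600 bases and 16 of 26 up to 1000 bases did so. Pairs of the 388 other genes with transcripts up to 1000 bases had a mean rho of 0.10, against 0.15 for the members, and 6.47% of them had a rho of 0.2 or more in each of the sets. Members exceeded other short genes by less than they exceeded genes at large, and the part of transcript length in their common variation was not tested.

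**Figure D3:**
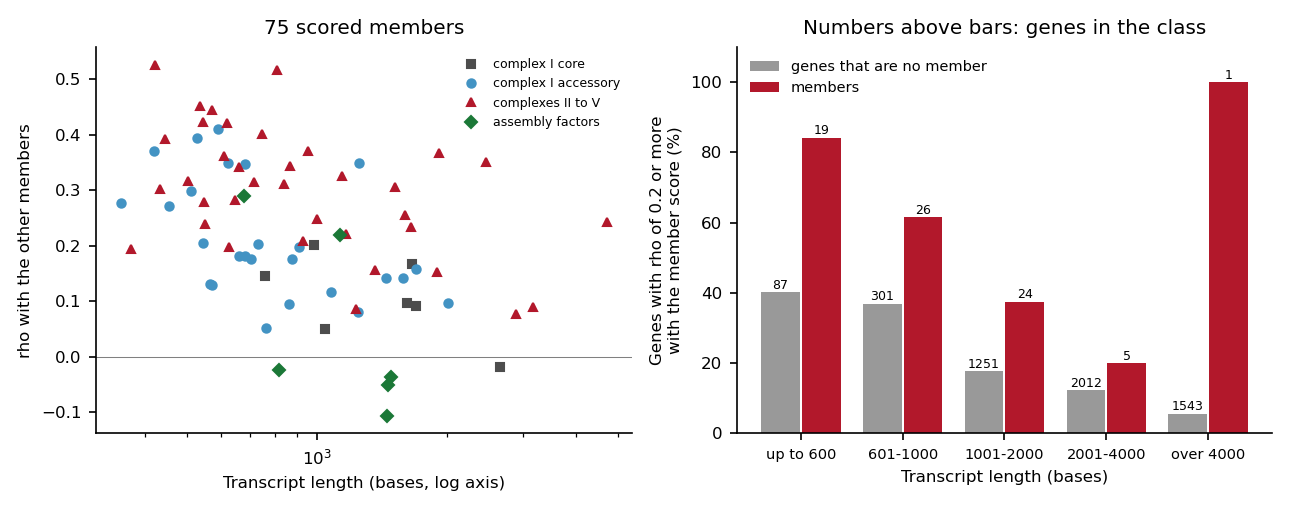
Left, rho of each of the 75 genes with the other members (y axis) against transcript length in bases (log x axis), by role. Right, share of genes with a rho of 0.2 or more with the member score by length class, for other genes (grey) and members (red), with the number of genes above each bar; the share of other genes falls from 40.2% in the shortest class.

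The member score moved with the number of genes found in a cell. Its rho with the number of genes above their floor was 0.64 in all cells, 0.65 in the first set and 0.59 in the second. When that number and the set were regressed out, the mean rho between members was 0.07 against 0.003 for all genes, 0.04 for other genes with transcripts up to 1000 bases, 0.08 for cytosolic and 0.05 for mitochondrial ribosomal proteins. In that setting, 31 of 75 genes had a rho of 0.2 or more with the rest, against 4.57% of other genes. By complex these were 10 of the 33 scored subunits of complex I, 9 of 10 of complex IV and 9 of 14 of complex V. Complex III had 2 of 8.

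Cells with many genes above their floor had more of the chain detected. In 16 cells over 3500 genes lay above their floor, 13 in the first set and 3 in the second, a threshold set after the values were seen. Their number of members detected had a lowest, median and highest value of 36, 55.5 and 65, against 5, 25 and 51 in the other 166 cells, so the ranges overlapped. The number of genes detected at 1 or more had medians of 1914.5 and 1804. The other 166 cells held 83 of each set, and the sets had medians of 1904 and 1690 by that number. The contrast of the 16 cells with the others thus mixes the sets and was not made within them. Of the 91 genes, 59 were detected in over 50% of the 16 cells, where 5.67% of all symbols were, and 10 in over 50% of the others, where 3.73% were. Of the 75 genes detected in at least 10% of all cells, 71 had the larger share in the 16 cells, against 49.8% of all genes tested and 84.8% of other genes with transcripts up to 1000 bases. Cox7a2 was detected in all 16 cells and in 28.9% of the others, Ndufa3 in all 16 and in 44.6%, Uqcr11 in 15 and in 29.5%, and Atp5e in 15 and in 42.2%. Atp5l, Atp5sl, Ndufs1 and Sdhaf2 were the 4 genes with no larger share, and Cox7c and Ndufs5 were detected in none of the 16.

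Other gene groups differed between the same cells. The larger share lay in the 16 cells for 49.8% of all genes tested and 84.8% of other genes with transcripts up to 1000 bases. It lay there for 49 of 54 genes of the G2/M phase and 27 of 42 of the S phase. The same held for 55 of 60 mitochondrial ribosomal protein genes and 30 of 37 proteasome subunit genes. Counts were lower for germinal centre B cell genes (3 of 14), dark zone genes (6 of 15) and light zone genes (6 of 21). No doublet caller was run on these captures, and the part of captures holding more than 1 cell in the difference was not tested.

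**Figure D4:**
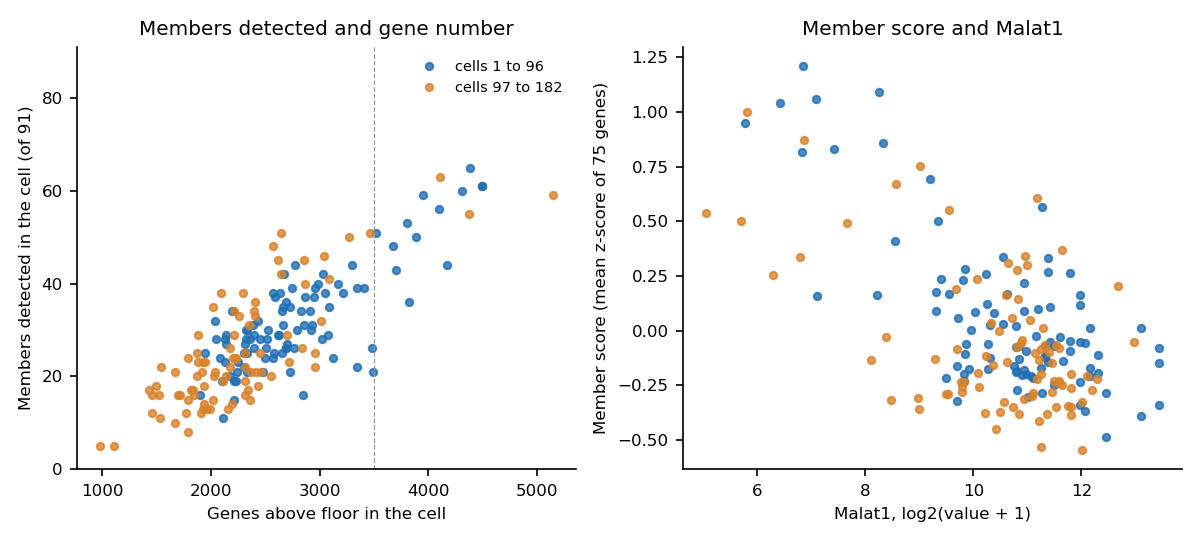
Left, number of the 91 genes detected in each cell against the number of genes above their floor, with a dashed line at 3500. Right, member score against Malat1 on the log2(value + 1) scale; each point is a cell, blue for cells 1 to 96 and orange for cells 97 to 182, and cells with low Malat1 have the highest scores.

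Malat1, an abundant non-coding RNA of the nucleus, went the other way. It was detected in all cells, with a lowest, median and highest value of 53.5, 1875 and 11148 in the first set and 32.0, 1829 and 8044 in the second. Its rho with the member score was -0.40, at -0.51 and -0.32 within the sets, and Pearson's r was -0.62. Individually, 40 of 75 genes had a rho of -0.2 or less with Malat1, against 8.8% of all genes tested, and none had 0.2 or more, where 1.55% of all genes tested did. Within the first set 50 did (15.8%), within the second 34 (12.8%), and 27 in each of the sets (4.94%). The share was also above that of all genes among other short genes. In all cells, 29.9% of genes outside the group with transcripts up to 600 bases and 29.6% from there to 1000 bases had -0.2 or less with Malat1, against 57.9% and 61.5% of members of those lengths. The lowest were Ndufb8 at -0.43 and Cox6a1 at -0.42, the latter at -0.39 and -0.44 within the sets, while Sdhaf2 (0.10) and Atp5sl (0.01) lay above 0. The 16 cells rich in genes had a median Malat1 value of 236.6, against 1955 in the others, and without them the rho of the score was -0.29. After regression on genes above floor and set it was -0.27, and 11 genes passed -0.2, against 2.61% of all genes tested. Other nuclear RNAs did not share the relation of Malat1. A score of 9 nuclear RNA genes, Malat1 among them, had a rho of -0.003, at -0.05 and -0.03 within the sets. Neat1, detected in 30 cells, had 0.21, at 0.21 and 0.06. Rn45s, the ribosomal RNA precursor, gave a rho of -0.41, at -0.43 and -0.46 within the sets.

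The rho values with both division scores lay near 0 in all cells. The rho of the member score with the G2/M phase score was 0.06, at 0.10 and -0.03 within the sets, and with the S phase score -0.02, at 0.01 and -0.08. A rho of 0.2 or more with G2/M was found for 4 of 75 genes, against 5.18% of all genes tested: Atp5d (0.30), Sdhb (0.22), Ndufa9 (0.21) and Ndufb7 (0.20). Of these 4, Atp5d alone had 0.2 or more in each of the sets, with 0.27 and 0.36. No gene reached 0.2 with the S phase score, where 4.64% of all genes tested did. Mki67, which marks cycling cells and was detected in 83.5% of cells, had a rho of -0.12 with the member score, at 0.00 and -0.26 within the sets. In the second set 15 of 75 genes had a rho of -0.2 or less with Mki67, against 10.1% of all genes tested, and in the first set 2 did (4.18%). Top2a, which untangles replicated DNA, had -0.05, at -0.01 and -0.14. After regression on genes above floor and set, Mki67 had -0.21 and Top2a -0.27. For G2/M, Pearson's r was 0.25, while rho was -0.11 without the 16 cells and -0.20 after regression on genes above floor and set.

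The zone scores and Cxcr4 also showed little relation in all cells, while Cd83 had a weak negative rho. Germinal centre B cells divide in the dark zone and test their receptors in the light zone. The rho of the member score with the dark zone score was -0.02, at 0.07 and -0.13 within the sets, and with the light zone score -0.09, at -0.19 and 0.00. Cxcr4, the receptor that draws cells to the dark zone, was detected in 87 cells, and its rho with the score was 0.03. Cd83, a surface marker of light zone cells, was detected in 88 cells and had the same sign in both sets, with -0.20 in all cells and -0.14 and -0.27 within the sets. Its rho was -0.23 after regression on genes above floor and set, and -0.19 without the 16 cells rich in genes. Single genes followed weakly, since 1 of 75, Atp5f1 at -0.21, had a rho of -0.2 or less with Cd83, against 0.407% of all genes tested. Cd86, another light zone marker, gave -0.16, at -0.19 and -0.06. With the light zone score, 4 of 75 genes had a rho of -0.2 or less, against 2.07% of all genes tested, and all 4 were accessory subunits of complex I. The lowest was Ndufa10 at -0.35, with -0.42 and -0.21 within the sets. No gene passed 0.2 in either direction with the dark zone score, where 1.29% of all genes tested had 0.2 or more and 1.04% had -0.2 or less.

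**Figure D5:**
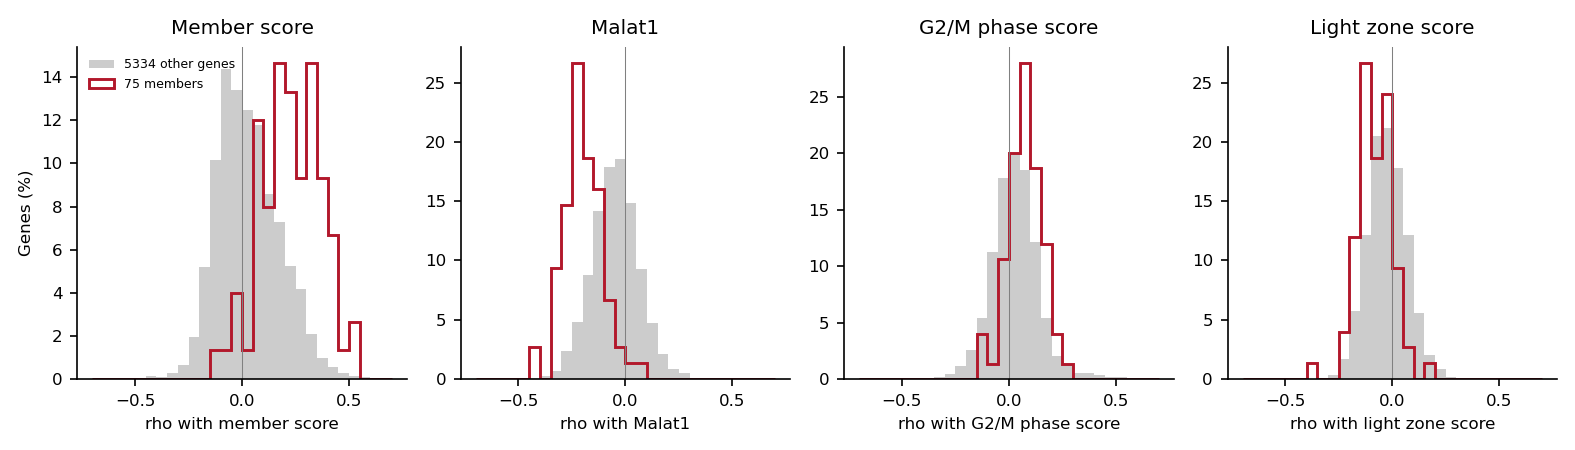
Distribution (percent of genes, y axis) of Spearman's rho over 182 cells with the member score, Malat1, the G2/M phase score and the light zone score, for other genes (grey) and the 75 members (red; in the first panel against the other members). Members lie to the right of other genes for the score and to the left for Malat1, and close to them for the last pair of panels.

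Other mitochondrial and growth genes were set against the same score. The score of 60 mitochondrial ribosomal protein genes had a rho of 0.65, at 0.64 in each set, and that of 37 proteasome subunits 0.65, at 0.59 and 0.64. Cytosolic ribosomal proteins (66 genes) had 0.60, enzymes of the tricarboxylic acid cycle (16 genes) 0.46, and the 29 chain genes outside the name rule 0.40. Glycolysis enzymes (8 genes) had 0.07, at 0.10 and -0.07 within the sets. In the first set the rho of these scores with genes above floor ranged from 0.22 for glycolysis to 0.70 for the proteasome, and in the second from -0.09 for glycolysis to 0.58 for the proteasome. After regression on genes above floor and set, the rho with the member score was 0.48 for cytosolic and 0.46 for mitochondrial ribosomal proteins, 0.40 for the proteasome, 0.21 for the tricarboxylic acid cycle, 0.16 for the chain genes outside the name rule and -0.03 for glycolysis. A score of 11 regulators of respiratory genes, among them Nrf1, Yy1 and Tfam, had -0.05. Ppargc1a, the coactivator known for driving mitochondrial biogenesis, was detected in 4 cells and Gabpa in 15. Myc, detected in 34 cells, had a rho of 0.26, at 0.26 and 0.19 within the sets, but of -0.02 after that regression. Its own rho with genes above floor was 0.46, at 0.22 and 0.40 within the sets. Of single members 17 of 75 had 0.2 or more with it in the first set (6.62% of all genes tested) and 21 in the second (16%).

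Among the 10 genes outside the group most like the member score, by the lower of the rho values in the sets, were Rps14, Pfn1, Rps9, Rps15a-ps4, Actb, Mrps21, Rpl39 and Rpl29. Rps14, of the small ribosomal subunit, led with 0.62 and 0.56 over the 96 and 86 cells, followed by Pfn1, which binds actin monomers, with 0.55 and 0.58. Mrps21 is a mitochondrial ribosomal protein gene, with 0.54 and 0.47, and Rps15a-ps4 is named as a pseudogene. The 5 most opposed were Lars2, Sfi1, Son, Prrc2c and Rn45s. Lars2, the mitochondrial leucyl-tRNA synthetase, had -0.54 and -0.74 and was detected in 95.6% of cells. It is needed to translate the subunits encoded in mitochondrial DNA, but a link of its value to that role was not tested. Shared sequence was examined only for the 91 genes and not for Lars2. Son, a nuclear speckle protein, had -0.57 and -0.45.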

How the data were processed

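Single-cell RNA libraries of 182 germinal centre B cells were used. The authors deposited a table of normalized signal, 1 value for each gene in each cell, whose starting unit is not given in the sources used here. TopHat2 2.0, Cufflinks 2.2, Cuffdiff and the mm10 build are named per the submitters' processing notes. Nor are the annotation, gene filter or normalization given, and read depth is unknown, so no model for counts was used. Of 17035 rows, 1 repeated symbol was used from 1 row only.

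Detection meant a value of 1 or more, with exact Clopper-Pearson 95% intervals. Scores were means of z-scores of log2(value + 1) over genes detected in at least 10% of cells. Spearman's rho was taken across all cells and within each set of columns, and described with a threshold of 0.2. Transcript lengths and shared 75-base stretches came from GENCODE M21 (GRCm38). Gene coordinates came from RefSeq (GRCm38), and promoters from RefSeq (GRCm38.p6). Calculations used Python 3.11.15, numpy 2.4.6, scipy 1.17.1 and pandas 2.3.3, and were tested on simulated data.

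The members and lists were chosen with earlier results of these data known. The rule for named genes took the subunits of each complex closest to the rest among those detected in at least 50% of cells, isoform families, the 5 most variable members, Malat1 and division and zone markers, and of other genes the 10 most like the score and the 5 most opposed. Lowest, median and highest values are printed for some of these and shares of cells for the others, and some genes that the rule selects are not reported here. Alternatives covered the detection value, pseudocount, filters, set, correlation measure, regression on genes above floor, and cells left out.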

Additional observations from a re-analysis of the deposited data

How the results depend on the processing

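Of 155 alternative values, 17 moved by 0.1 or more in rho, or by over 1.5 times for a count, and 138 moved by less. The latter include the mean rho between members, at 0.07 in place of 0.15 after regression on genes above floor and set, the members following the rest, at 31 in place of 43, and the difference within minus between complexes, at 0.07 in place of 0.02 over all members with any variation. The Malat1 and Cd83 values stayed below 0 in all of their alternatives. The near-zero values for G2/M, S phase, dark zone, light zone and Cxcr4 changed sign in some. The rho of the member score with Malat1 was -0.51 in cells 1 to 96, -0.27 after regression on genes above floor and set, and -0.62 as Pearson's r. With G2/M it was -0.20 after that regression and 0.25 as Pearson's r, and with S phase -0.21 and 0.087. The S phase and light zone values were 0.095 and 0.018 over members detected in at least 50% of cells. The dark zone value was -0.13 in cells 97 to 182, and Cxcr4 had a Pearson's r of -0.10. Without the 16 cells with over 3500 genes above floor, an alternative chosen after seeing the data, Malat1 had -0.29 and G2/M -0.11. The number of members detected in over 50% of cells was 6 at a value of 5, 24 in cells 1 to 96 and 6 in cells 97 to 182. At a rho of 0.3, 26 members followed the rest. The cause of these shifts was not tested. Unknown depth and 1 group with no named animal limit all values to descriptions. No paired analysis was possible because the cells form 1 group.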
